A study of Mus musculus with 18 samples.

Results

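The glucocorticoid receptor and 7 genes tied to it by textbook knowledge were followed over the day in cells of mouse dorsal dermis. The receptor gene is Nr3c1, and Hsd11b1 encodes the enzyme that regenerates active glucocorticoid inside cells. The other 6 members are genes that the receptor is known to induce, namely Tsc22d3, Fkbp5, Sgk1, Klf9, Zbtb16 and Errfi1. The 8 members were taken by name, with earlier results of these data known, and all 8 were found among the 32285 genes counted. Single-cell RNA sequencing of 18 libraries gave the counts, with 1 mouse per library and 3 mice at each of zeitgeber times ZT2, ZT6, ZT10, ZT14, ZT18 and ZT22 (ZT0 is lights on). All animals were untreated male C57BL/6J mice of wild-type genotype, about 54 days old, with resting (telogen) skin, kept in 12 h of light and 12 h of darkness. There was no treated group, no hormone was measured, and no mouse without the receptor was included. The groups differed only in the time of collection, and collection ran over 3 days. By the sample titles the replicate number follows the day. For example, replicates 1, 2 and 3 of ZT2 are titled ZT2, ZT26 and ZT50.

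Glucocorticoids are steroid hormones of the adrenal cortex, and in mice their level in blood rises toward the dark phase, when the animals become active. The receptor waits in the cytoplasm in a complex with heat shock proteins and FKBP immunophilins, binds hormone, moves to the nucleus and acts on genes through DNA elements made of a pair of inverted half-sites. In skin the hormones are known for restraining inflammation and for slowing fibroblast growth, and Hsd11b1 sets how much active hormone a cell sees.

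The sequence upstream of the members is shown first, because the receptor and the clock are each known to act through short elements of this kind. RefSeq promoter windows of build GRCm38.p6, reaching from 250 bases before to 50 bases after each annotated start, were held for 6 members and came to 14 windows. Nr3c1 is not shown, and Zbtb16 had no window in the table used. The letters searched on both strands were the receptor half-site TGTTCT, the full element of 2 inverted half-sites around 3 bases, the E-box CACGTG bound by clock factors, and the ROR half-site AGGTCA. Of 32851 windows of the same length over all genes, 19.0% held a half-site, 7.15% an E-box, 16.3% an ROR half-site and 0.00913%, which is 3 windows, the full element. Sgk1 was 1 of these 3. The stretches below are 5′ to 3′ on the strand of the gene, with the motifs in capitals, and overlapped no annotated exon of their gene.
Sgk1, chr10:21993640-21993755, plus strand: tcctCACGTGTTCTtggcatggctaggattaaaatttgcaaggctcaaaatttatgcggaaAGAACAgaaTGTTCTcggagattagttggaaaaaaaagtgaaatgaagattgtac
Tsc22d3, chrX:140600662-140600727, minus strand: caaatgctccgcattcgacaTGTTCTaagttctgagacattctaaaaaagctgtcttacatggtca
Fkbp5, chr17:28486273-28486338, minus strand: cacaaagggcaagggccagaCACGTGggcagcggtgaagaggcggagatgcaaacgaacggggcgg
In the Sgk1 stretch the full element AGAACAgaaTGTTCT lay from 189 to 175 bases before the start, and an E-box further upstream overlapped another half-site. The Tsc22d3 stretch held a single half-site and the Fkbp5 stretch a single E-box. The windows of Klf9 and Hsd11b1 held none of these letters, which says nothing of more distant sequence. Of the 14 windows, 4 held a half-site, 2 an E-box and 3 an ROR half-site, and the windows of one gene are not independent.

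The libraries held between 4850221 and 40827442 unique molecular identifiers (UMIs, each standing for 1 captured RNA molecule) over all 23990 barcodes, and between 3777201 and 40094033 in the 16877 cells that passed the cell filter. Clusters were assigned from marker genes, with the members and the pathway genes left out of the genes that made the clusters. Fibroblasts numbered 11967, or 70.9% of kept cells, macrophages 2210, or 13.1%, and other immune cells 1122, or 6.65%. The other immune cells were clusters like dendritic cells, T cells, neutrophils, NK cells, mast cells and B cells, and 339 cells in a cluster led by Ly6c2 and Ms4a4c that was left unnamed. This unnamed cluster, the largest of the class, also held all 9 macrophage markers, and 46.3% of it came from ZT2 replicate 3. The median cell held 22266, 12178 and 8064 UMIs in these 3 classes. All 6 fibroblast markers, such as Col1a1 and Dcn, were detected in the fibroblasts. The macrophage clusters held 5 to 9 of the 9 macrophage markers, and 1 of them with all 9 was led by the immunoglobulin genes Jchain and Igkc. A level below is the UMIs of a gene per 10000 UMIs of the class summed in 1 library, which for counts of the 3′ end does not grow with transcript length. Fibroblasts ranged from 106 to 1536 cells per library, macrophages from 28 to 272 and other immune cells from 3 to 234, the 3 cells being those of ZT18 replicate 1. Among the kept cells 36 barcodes occurred in more than 1 library.

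In fibroblasts the receptor gene itself was close to flat over the day, while 2 of the 8 members, Sgk1 and Klf9, passed the test for a 24 h rhythm with peaks in the light phase. Rhythms were tested on the counts of the 18 libraries with a cosine of 24 h in edgeR's quasi-likelihood framework, with Benjamini-Hochberg adjustment over all genes tested in the class, called at an adjusted p under 0.05. It called 13.2% of the 12769 genes tested in fibroblasts, so that 2 of 8 members stood beside that background. The median log2 peak-to-trough difference was 0.45 over the 8 members and 0.26 over all genes tested. A fitted difference of this kind is never below 0 and grows with the spread between libraries, so such medians are a description only.

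**Figure D1:**
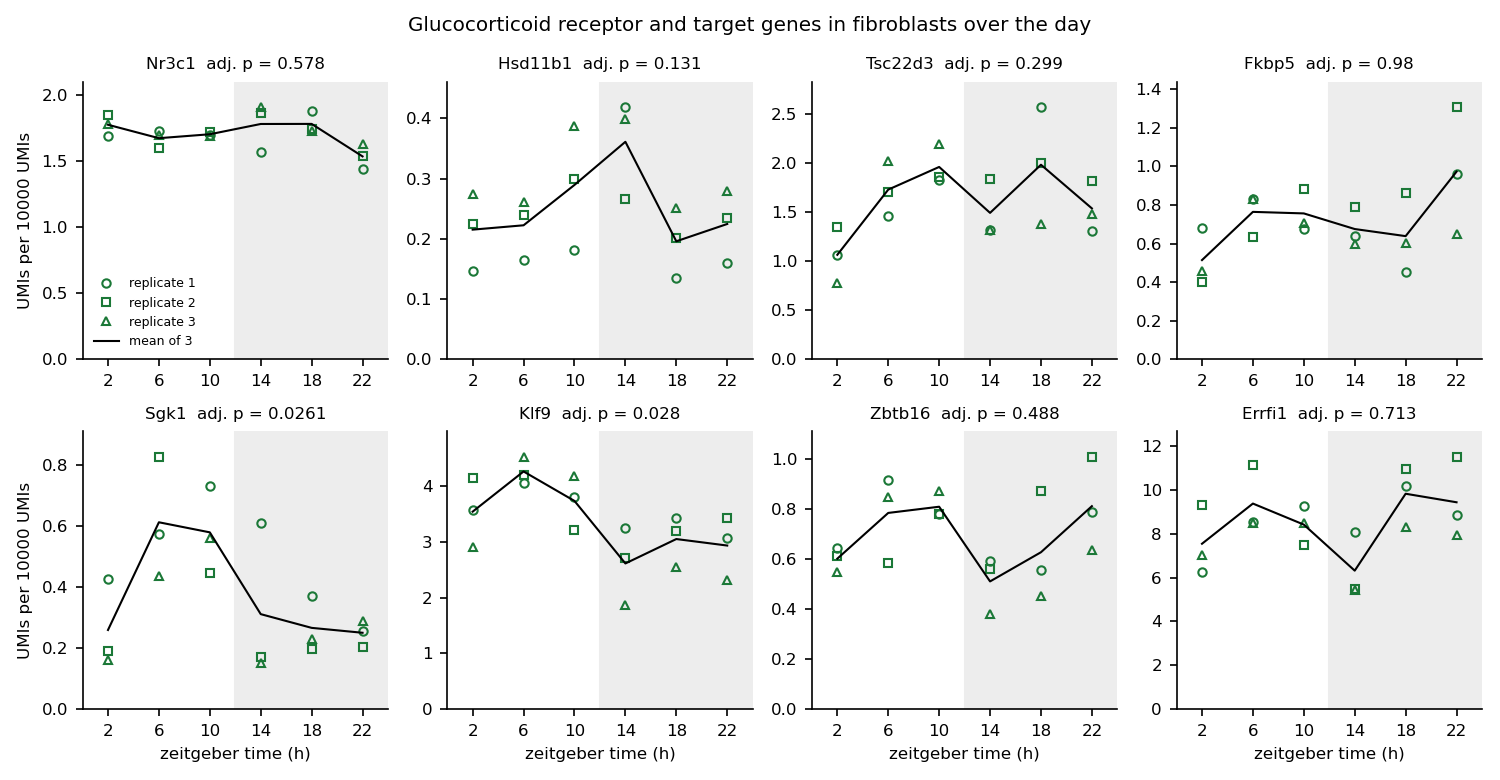
Level of each member in fibroblasts (UMIs per 10000 UMIs, vertical axes) against zeitgeber time (hours, horizontal axes), with 1 point per library (the shape marks the replicate), a line through the means of the 3 libraries at each time, and the dark phase shaded. Sgk1 was highest at ZT6 and ZT10, Klf9 at ZT6, and Nr3c1 stayed between 1.44 and 1.91 in all 18 libraries.

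Nr3c1, the receptor, had a fibroblast level of 1.71 ± 0.124 (SD, n = 18 libraries), with a lowest value of 1.44, a median of 1.71 and a highest of 1.91. The mean was lowest at ZT22, at 1.54 ± 0.0963 (SD, n = 3), and lay between 1.68 and 1.78 at the other times. The fitted peak-to-trough fold was 1.07, and the rhythm was not called (edgeR adjusted p = 0.578). The spread between mice was therefore small, and any daily change in Nr3c1 RNA was smaller than could be told from it.

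Hsd11b1, which turns inactive 11-dehydrocorticosterone back into corticosterone, was low in fibroblasts, from 0.135 through a median of 0.246 to 0.419. Its mean was highest at ZT14, with 0.419, 0.265 and 0.399 in the 3 libraries, and lowest at ZT18, with 0.135, 0.201 and 0.252. The ZT14 values overlapped those of ZT10, which were 0.182, 0.299 and 0.388. The fitted fold was 1.58 with a peak at ZT12.2, and the call was missed (edgeR adjusted p = 0.131). Replicate 1 was the lowest of the 3 at 5 of the 6 times, and with the replicate number as a block in the fit the adjusted p was 0.0445.

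Sgk1 encodes a kinase that regulates ion channels and transporters and is a classical early target of the receptor. At ZT6 its fibroblast level was 0.573, 0.826 and 0.434 and at ZT10 it was 0.731, 0.444 and 0.559. At the other 4 times most libraries lay lower, with 0.424, 0.190 and 0.162 at ZT2, 0.609, 0.172 and 0.151 at ZT14, 0.370, 0.197 and 0.229 at ZT18 and 0.255, 0.204 and 0.289 at ZT22. Only ZT14 replicate 1 among those 12 libraries reached into the range of ZT6 and ZT10. The fitted fold was 2.84 with a peak at ZT8.25 (edgeR adjusted p = 0.0261), and the cosine amplitude was 51.5 ± 10.9% of the mean (jackknife SE over 18 libraries). The call was lost without ZT10 replicate 1 (edgeR adjusted p = 0.0554), without ZT6 replicate 2 (0.0521) and without ZT22 replicate 2 (0.0515). It was lost as well with the 6 times as a factor (edgeR adjusted p = 0.0852) and by a rank test of the JTK_Cycle kind (adjusted p = 0.389).

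Klf9, a zinc finger factor induced by the receptor and known as a clock output in skin, had the second highest level of the members in fibroblasts. At ZT6, where its mean was highest, it stood at 4.06, 4.20 and 4.53, and at ZT14, where it was lowest, at 3.26, 2.72 and 1.86. The means of the remaining times lay between those 2 means, while single libraries overlapped both groups, with 3.57, 4.15 and 2.91 at ZT2, 3.81, 3.22 and 4.17 at ZT10, 3.42, 3.19 and 2.54 at ZT18 and 3.06, 3.42 and 2.31 at ZT22. The fitted fold was 1.55 with a peak at ZT5.75 (edgeR adjusted p = 0.0280), and the cosine amplitude was 20.7 ± 5.67% of the mean. Leaving out ZT6 replicate 1, ZT6 replicate 2, ZT6 replicate 3 or ZT18 replicate 3 gave adjusted p values of 0.0571, 0.0578, 0.0575 and 0.0599, and the 6 times as a factor gave 0.0581.

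The other 4 induced genes were not called rhythmic in fibroblasts. Tsc22d3, also called GILZ, an anti-inflammatory leucine zipper protein, ranged from 0.780 to 2.57 with a median of 1.59. Its mean was lowest at ZT2, at 1.06 ± 0.283 (SD, n = 3), and reached 1.96 at ZT10 and 1.98 at ZT18 with 1.49 between them at ZT14 (edgeR adjusted p = 0.299). Fkbp5, an immunophilin that lowers the receptor's affinity for hormone, ranged from 0.399 to 1.31 with the highest time mean at ZT22 and a fitted fold of 1.05 (edgeR adjusted p = 0.980). Zbtb16, a zinc finger repressor also known as PLZF, and Errfi1, a feedback inhibitor of the EGF receptor, each had their lowest mean at ZT14. Those means were 0.511 ± 0.115 for Zbtb16 and 6.32 ± 1.52 for Errfi1 (SD, n = 3), and neither gene was called (edgeR adjusted p = 0.488 and 0.713). The summed level of 13 dissociation and immediate early genes was also lowest at ZT14, at 96.2 ± 12.3, and highest at ZT10, at 143.8. The part of tissue digestion at 37 °C, which can raise these genes, in the members' levels was not tested.

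Within the fibroblasts the members were spread unevenly over the 9 clusters. Sgk1 stood at 2.07 in a cluster of 686 cells led by Cthrc1, Ctsk and Tnmd, and between 0.0877 and 0.673 in the other 8, a range of 23.6-fold. The immediate early gene Fos stood at 36.2 to 53.6 in the clusters led by Cthrc1, Cxcl14, Cilp and Has1, which were the highest in Sgk1. In the remaining fibroblast clusters Fos stood at 8.07 to 26.2. Its relation to Sgk1 was not tested. Hsd11b1 stood at 1.15 in the cluster led by Cxcl14 and Gdf10, at 0.610 in that led by Cilp and Mgp, and at most at 0.28 elsewhere. Errfi1 ran from 4.36 in the Cilp and Mgp cluster to 13.3 in the Has1 and Cxcl10 cluster. Nr3c1 was lowest, at 0.962, in the Cthrc1 and Ctsk cluster, where Sgk1 was highest, and highest, at 1.83, in the clusters led by Smpd3 and Pla1a and by Sbsn and Dmkn. Klf9 varied least among the induced genes, from 2.59 to 4.26. These are sums over cells of all 18 mice, and their intervals cover counting error only.

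**Figure D2:**
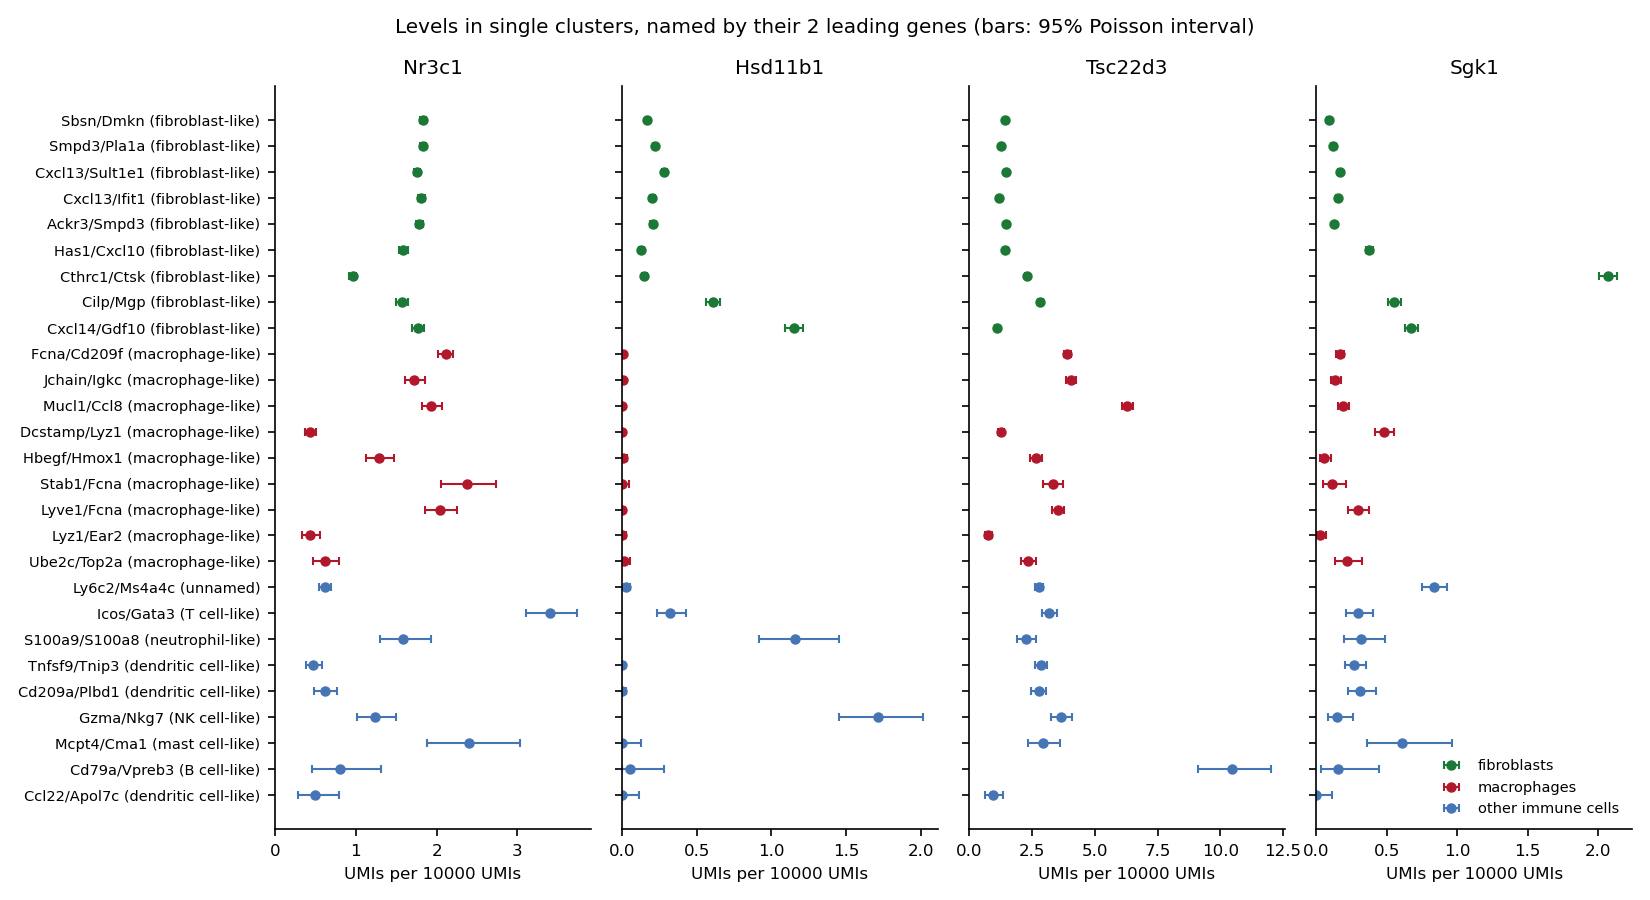
Level of Nr3c1, Hsd11b1, Tsc22d3 and Sgk1 (UMIs per 10000 UMIs) in each cluster of the 3 classes, the clusters named by their 2 leading genes, with bars for the 95% Poisson interval of the summed count. Sgk1 reached 2.07 in the Cthrc1 and Ctsk cluster, Hsd11b1 was high in few clusters, and Tsc22d3 was highest, at 10.5, in the Cd79a-led cluster.

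The Sgk1-rich cluster did not hold the same share of the fibroblasts at each time. It made up on average 9.87% of fibroblasts in the 6 libraries of ZT6 and ZT10, from 5.24% to 17.4%, and 5.27% in the other 12, from 1.94% to 13.7%. Inside this cluster the Sgk1 level averaged 2.99 at ZT6 and ZT10, from 1.84 to 4.57, and 1.56 at the other times, from 0.394 to 2.50. Both its share and its Sgk1 level were higher on average at the times when Sgk1 peaked in all fibroblasts, with ranges that overlapped. This cluster gave 3899 of the 8741 Sgk1 UMIs of the fibroblasts. Cluster and times were both picked by their Sgk1 level, so these differences are in part given by that choice. Without the cluster the Sgk1 rhythm had an edgeR adjusted p of 0.0916 and a log2 peak-to-trough difference of 1.33, against 1.51 in all fibroblasts. Without the 3 clusters in which any member stood at least 2 times above its level in all fibroblasts, the adjusted p was 0.226 and the difference 1.06. Klf9 was still called in both of these fits (edgeR adjusted p = 0.0269 and 0.0443). Both fits were chosen after the data were seen. The summed level of the 6 endothelial markers in the fibroblast libraries ran from 0.0389 to 0.230 at ZT6 and ZT10 and from 0.0222 to 0.322 at the other times, and that of the 7 immune markers from 0.0596 to 0.130 and from 0.0346 to 0.172. Of the markers of other cell types, Tnnt3 and Mylpf of skeletal muscle and Dct of melanocytes were called rhythmic in the fibroblast libraries. The summed level of the 5 skeletal muscle markers ran from 0.296 to 0.748 at ZT6 and ZT10 and from 0.238 to 1.26 at the other times, and that of the 4 melanocyte markers from 0.0642 to 0.200 and from 0.0165 to 0.661. Their part in the rhythms of Sgk1 and Klf9 was not tested.

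**Figure D3:**
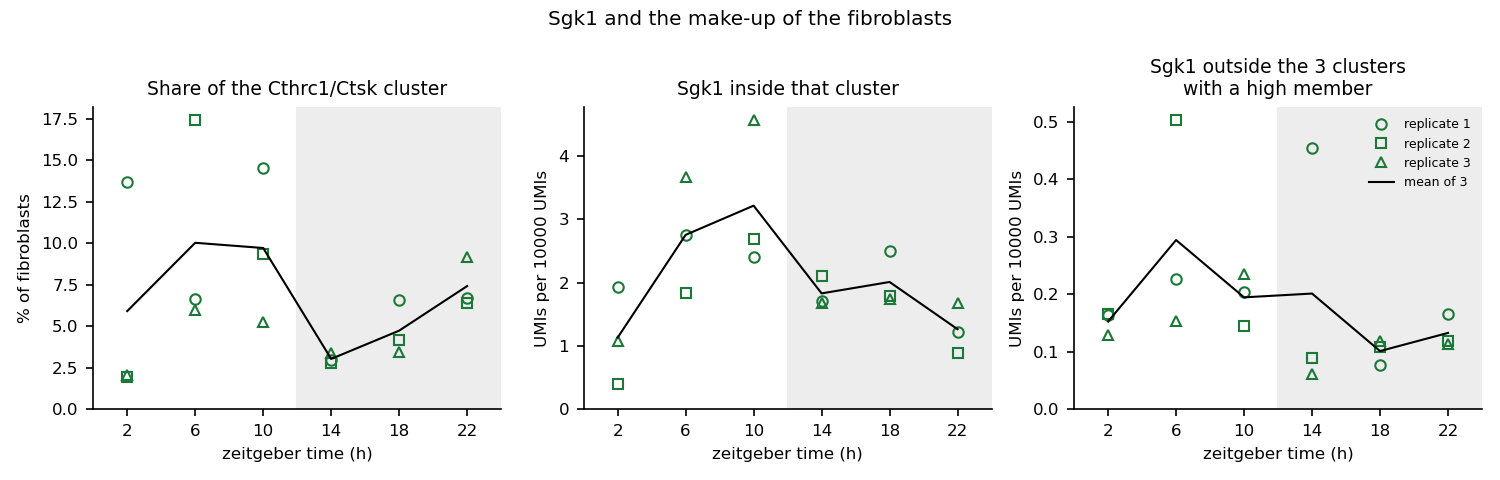
Share of the Cthrc1 and Ctsk cluster among fibroblasts (percent), the Sgk1 level inside it, and the Sgk1 level in fibroblasts outside the 3 clusters high in a member (UMIs per 10000 UMIs), each against zeitgeber time (hours) with 1 point per library, a line through the means and the dark phase shaded. At ZT6 and ZT10 the share averaged 9.87% and the level inside the cluster 2.99, against 5.27% and 1.56 at the other times.

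In macrophages no member passed the test, although 4 of the 7 members tested, Fkbp5, Klf9, Errfi1 and Tsc22d3, had an unadjusted edgeR p under 0.05. Over all genes 1046 of 9827 had an unadjusted p under 0.05, and 0.234% were called in this class, a class with 28 to 272 cells per library. The median log2 peak-to-trough difference was 0.88 over the 7 members and 0.33 over all genes tested. Genes known to be repressed by the receptor had a median of 1.21 in macrophages with 0 calls, so a high median alone does not show a rhythm. Hsd11b1 was too low to be tested.

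Fkbp5 in macrophages was on average highest at ZT6, with 0.495, 0.520 and 0.788, and lowest at ZT22, with 0.256, 0.247 and 0.101. It was 0.351, 0.412 and 0.109 at ZT2, 0.401, 0.433 and 0.444 at ZT10, 0.605, 0.691 and 0.302 at ZT14 and 0.403, 0.357 and 0.151 at ZT18. The time means were thus higher at ZT6 to ZT14 and lower at ZT18 to ZT2, with single libraries that overlapped. The fitted fold was 2.64 (edgeR adjusted p = 0.209).

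Klf9 in macrophages was on average highest at ZT10, with 1.01, 1.19 and 1.41, and lowest at ZT14, with 0.650, 0.401 and 0.512. The fitted fold was 2.12 (edgeR adjusted p = 0.243), and Klf9 in fibroblasts was likewise low at ZT14. Tsc22d3 had its highest macrophage mean at ZT6, at 4.82 ± 0.459, and its lowest at ZT22, at 2.92 ± 0.780 (SD, n = 3; edgeR adjusted p = 0.406). Errfi1 was highest at ZT10 as well, with 1.05, 1.53 and 0.790 (edgeR adjusted p = 0.385). Nr3c1 ranged from 1.35 to 2.11 around a mean of 1.64 ± 0.180 (SD, n = 18), with the highest mean at ZT18 (edgeR adjusted p = 0.849).

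The time means of several other features of the macrophages also differed, with single libraries that overlapped and no test. Each cluster named here was the macrophage cluster highest in the members given with it. The cluster led by Hbegf and Hmox1, in which Klf9 stood at 2.20 and Errfi1 at 4.88, made up on average 13.5% of macrophages at ZT10 and between 2.77% and 7.73% at the other times. Its share ran from 6.15% to 18.9% at ZT10 and from 4.65% to 11.2% at ZT6. The cluster led by Mucl1 and Ccl8, in which Tsc22d3 stood at 6.28, made up 25.2% and 26.9% at ZT6 and ZT10, 23.3% at ZT22 and less at the other times, down to 12.5% at ZT18. In single libraries its share ran from 16.0% to 30.2% at ZT6, from 18.9% to 35.4% at ZT10 and from 22.4% to 24.3% at ZT22. The summed immediate early level averaged 196.0 at ZT6 and 184.7 at ZT10, and between 119.5 and 155.1 otherwise. It ran from 154 to 229 at ZT6 and from 89.9 to 178 at ZT18. The part of these in the members' values was not tested. With no filter on low counts Fkbp5 and Klf9 were called in macrophages (edgeR adjusted p = 0.00453 and 0.00970). The calls over all genes rose several-fold in that fit too, as counted at the end, so the rise was not particular to the members.

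**Figure D4:**
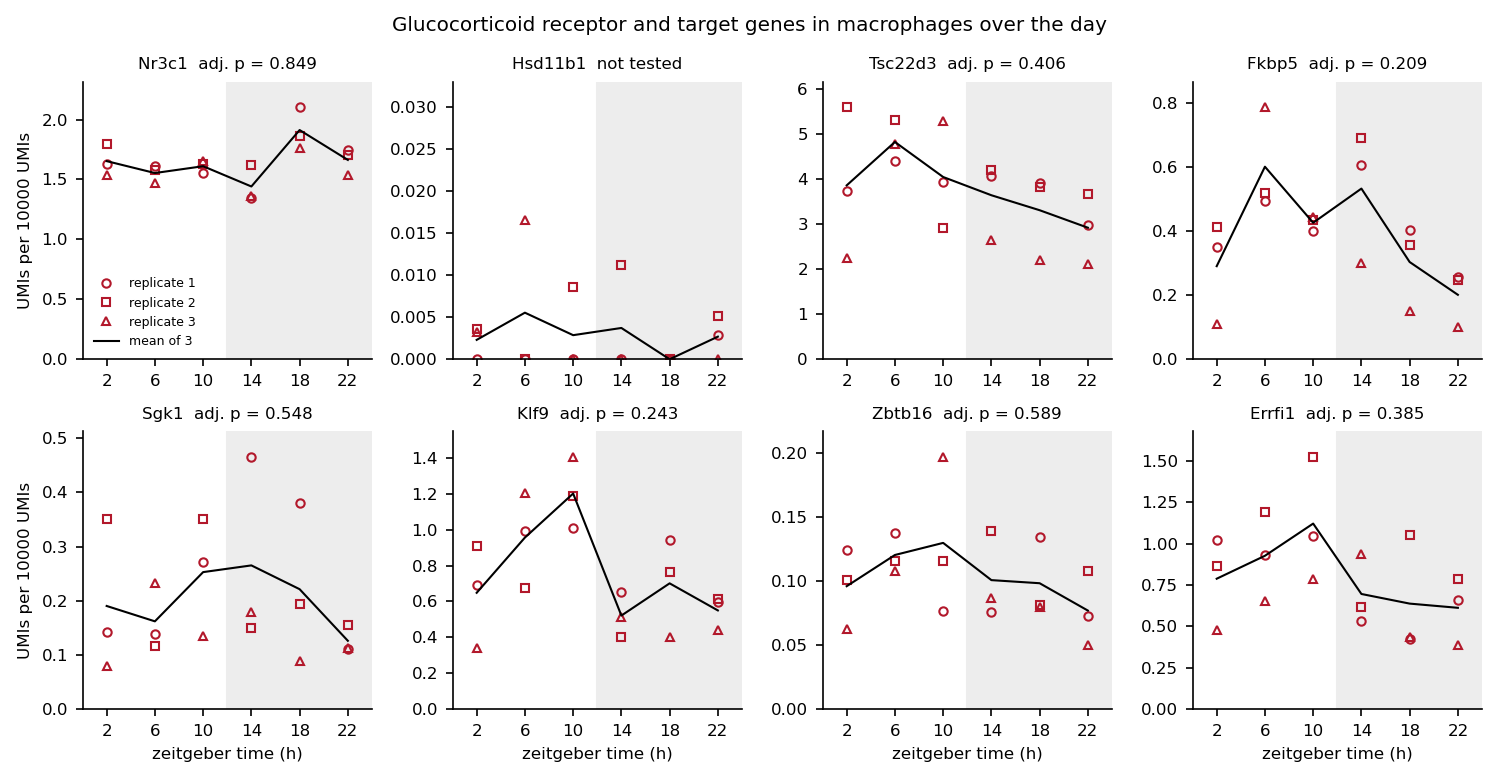
Level of each member in macrophages (UMIs per 10000 UMIs, vertical axes) against zeitgeber time (hours, horizontal axes), with 1 point per library (the shape marks the replicate), a line through the means of the 3 libraries at each time, and the dark phase shaded. Fkbp5 and Klf9 were higher at ZT6 and ZT10 than at ZT22, and Hsd11b1 was at 0 in 11 of 18 libraries.

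In the other immune cells none of the 7 members tested was called, and none had an unadjusted edgeR p under 0.05. Zbtb16, with 91 UMIs in this class, was too low to be tested. The test called 0% of the 6393 genes tested there, with 245 at an unadjusted p under 0.05 and 5 called by DESeq2. Tsc22d3 had the highest time mean at ZT10, at 4.62 ± 0.715, against 2.54 ± 0.678 at ZT22 (SD, n = 3). This class was thin, and its cell types were not present in equal shares in every library.

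Whether a member's rhythm differed between classes was tested with the library as a block. By edgeR no member was called for macrophages against fibroblasts, other immune cells against fibroblasts or macrophages against other immune cells, where 4 of 8, 1 of 8 and 2 of 6 members had an unadjusted p under 0.05. Over all genes 1154 of 11005, 619 of 10623 and 263 of 6727 had such a p, and 0.509%, 0.0377% and 0% were called by edgeR, the last with 0 called by DESeq2 as well. The smallest adjusted p was that of Fkbp5 between macrophages and fibroblasts (edgeR adjusted p = 0.222). With no filter on low counts that comparison called Fkbp5, Errfi1, Tsc22d3 and Sgk1. Over all genes that fit also called several times as many as the main fit, as counted at the end, so the rise was not particular to the members. So a call for Sgk1 and Klf9 in fibroblasts and none in macrophages is not shown to be a difference between the cell types.

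The levels of most members, in contrast, differed between the classes. By edgeR's quasi-likelihood test with the library as a block, all 8 were called between macrophages and fibroblasts, 7 higher in fibroblasts and 1 in macrophages. In this comparison 83.7% of 11005 genes were called, 46.9% higher in fibroblasts and 36.8% in macrophages. Nr3c1 is counted among the 7 at a log2 of -0.17, and its call did not hold in every fit, as given below. Between other immune cells and fibroblasts 6 of 8 were called, 5 of them higher in fibroblasts and 1 in other immune cells, beside 76.3% of 10623 genes, 45.2% higher in fibroblasts and 31.1% in other immune cells. Between macrophages and other immune cells 4 of the 6 tested were called, 3 higher in macrophages and 1 in other immune cells, beside 60.3% of 6727 genes, 30.4% higher in macrophages and 29.9% in other immune cells. Without the clusters of which 1 library held over 40%, the unnamed one among them, 3 of these 4 were still called, Fkbp5, Sgk1 and Klf9, and Nr3c1 was not (edgeR adjusted p = 0.0766). With so many genes called, the counts say little alone, and median sizes are given beside them as a description. The members' median log2 difference was -1.67 for macrophages minus fibroblasts, where that of all genes tested was -0.12, and -1.45 for other immune cells minus fibroblasts, against -0.23. Hsd11b1, with 10 UMIs in macrophages, entered the first of these through its level in fibroblasts, so its side of that median was given in advance. Zbtb16, with 91 UMIs in other immune cells, entered the second in part through its level in fibroblasts.

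**Figure D5:**
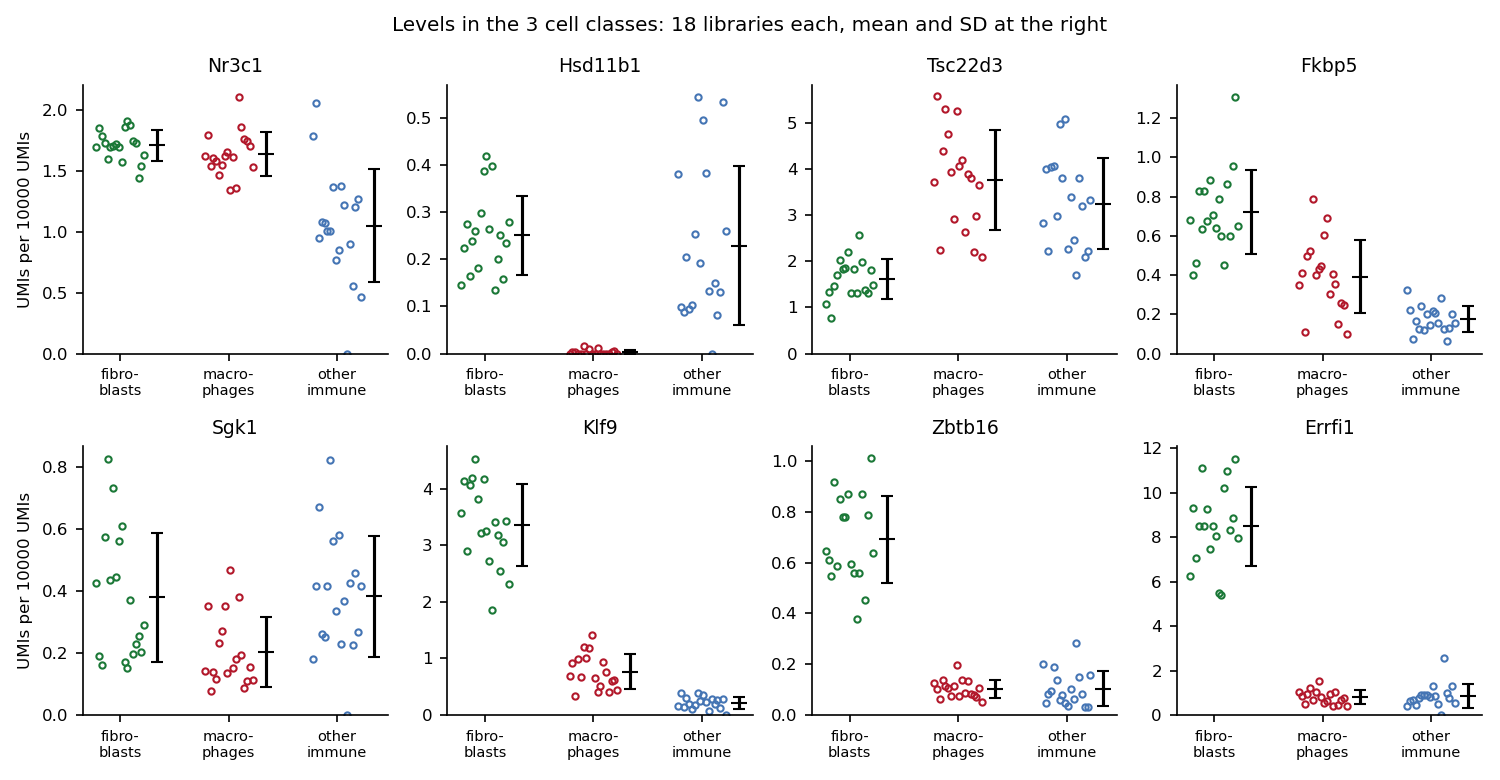
Level of each member (UMIs per 10000 UMIs) in fibroblasts, macrophages and other immune cells, with 1 point per library and the mean ± SD of 18 libraries to the right of the points. Errfi1, Klf9 and Zbtb16 were higher in fibroblasts in 18 of 18 libraries, Tsc22d3 was higher in macrophages in 18 of 18, and Hsd11b1 was near 0 in macrophages.

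Nr3c1 was the member with the most even level, at 1.71 ± 0.124 in fibroblasts, 1.64 ± 0.180 in macrophages and 1.05 ± 0.468 in other immune cells (SD, n = 18). Fibroblasts and macrophages were neighbours that could not be ordered. The log2 difference of macrophages minus fibroblasts was -0.17 ± 0.05 (SE; edgeR adjusted p = 0.00206; lower in 13 of 18 libraries), but library totals without TMM factors gave -0.07 (adjusted p = 0.208), and clusters with at least 8 of the 9 macrophage markers reversed it to 0.15 (adjusted p = 0.00927). The call held in 7 of the 18 fits that left out 1 library, with the highest adjusted p, 0.322, without ZT14 replicate 3. Against fibroblasts the other immune cells were lower, by 1.68-fold (edgeR adjusted p = 1.86e-05; lower in 16 of 18 libraries). By cluster, Nr3c1 was highest in T cell-like cells, at 3.41, and low in the macrophage-like clusters led by Lyz1 and Ear2, at 0.436, and by Dcstamp and Lyz1, at 0.434.

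Hsd11b1 differed most of the members between macrophages and fibroblasts. Macrophages held 10 of its UMIs in all, and 11 of their 18 libraries none, against 7010 UMIs in fibroblasts. The log2 difference of macrophages minus fibroblasts was -6.28 ± 0.20 (SE; edgeR adjusted p = 1.31e-20; lower in 18 of 18 libraries). Hsd11b1 passed the filter on low counts through fibroblasts, so the direction was given in advance. The macrophage level was 1.27% of that in fibroblasts, just above the 0.462% to 1.15% at which the 6 fibroblast markers were read in macrophages, which free RNA in the droplets can give. Expression of Hsd11b1 in macrophages was thus hardly told from that background. The other immune cells had 0.230 ± 0.169 (SD, n = 18), and their difference from fibroblasts was not called (log2 -0.20 ± 0.22; edgeR adjusted p = 0.396).

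Of the 280 Hsd11b1 UMIs in other immune cells, 148 came from NK cell-like and 76 from neutrophil-like cells. In NK cell-like cells it stood at 1.71 (95% Poisson interval 1.45 to 2.01), above every fibroblast cluster, with a UMI in 64 of 98 cells at a median depth of 7099.5 UMIs, whereas the 2210 macrophages held 10 UMIs at a median depth of 12178. These cells came from 17 libraries, 15 of which had a Hsd11b1 UMI, and without the library that gave most the level was 1.64. Neutrophil-like cells stood at 1.16, but 1 library, ZT14 replicate 1, held 62.2% of the cells. The T cell-like level was 0.319.

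Tsc22d3 was the induced gene that stood higher in immune cells. Macrophages had 3.76 ± 1.08 and other immune cells 3.25 ± 0.987, against 1.63 ± 0.434 in fibroblasts (SD, n = 18). The log2 differences from fibroblasts were 1.11 ± 0.09 (edgeR adjusted p = 1.08e-11; higher in 18 of 18 libraries) and 0.97 ± 0.11 (adjusted p = 1.54e-08; higher in 17 of 18). Macrophages and other immune cells were not told apart (log2 0.05 ± 0.11; edgeR adjusted p = 0.707). B cell-like cells had the highest level of any cluster in the classes, at 10.5 (95% Poisson interval 9.10 to 12.0), from 208 UMIs in 31 of 33 cells, and macrophage-like clusters ran from 0.753 to 6.28.

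Errfi1, Klf9 and Zbtb16 were higher in fibroblasts than in both immune classes in 18 of 18 libraries. Errfi1 was 11.6-fold higher in fibroblasts than in macrophages and 10.5-fold higher than in other immune cells. Klf9 was 4.94-fold and 16.0-fold higher, and Zbtb16 7.34-fold and 7.97-fold. The immune levels of these genes were between 6.98% and 23.0% of the fibroblast level, above the range of the fibroblast markers. Klf9 was also 2.95-fold higher in macrophages than in other immune cells (edgeR adjusted p = 1.21e-07; 18 of 18 libraries). Zbtb16, with 91 UMIs in other immune cells, was not tested between the immune classes. Against other immune cells its place in the test rested in part on fibroblasts, so that direction was in part given in advance.

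Fkbp5 and Sgk1 differed less. Fkbp5 was 2.05-fold higher in fibroblasts than in macrophages (17 of 18 libraries) and 1.97-fold higher in macrophages than in other immune cells (17 of 18 libraries). The order for Fkbp5 summed over each class was thus fibroblasts, macrophages, other immune cells, with each step called (edgeR adjusted p = 1.53e-06 and 3.28e-06). Single clusters overlapped. Fkbp5 ran from 0.0943 to 0.571 in macrophage clusters, and from 0.0646 to 0.437 in those of other immune cells, highest in T cell-like cells. Sgk1 was 1.85-fold lower in macrophages than in fibroblasts (edgeR adjusted p = 6.26e-05; lower in 15 of 18 libraries), and other immune cells and fibroblasts were not told apart (adjusted p = 0.406). The fibroblast level of Sgk1 was uneven, from 0.376 to 2.07 in the clusters led by Cthrc1, Cxcl14, Cilp and Has1. The remaining fibroblast clusters stood at 0.0877 to 0.169, below the level of 0.207 summed over all macrophages.

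The receptor's partners and other known targets were taken from lists, chosen with earlier results of these data known, and are given by their counts. In fibroblasts 2 of 12 genes of the receptor complex and ligand supply were called rhythmic, the co-chaperones Fkbp4 and Stip1, where 13.2% of all genes were called. Fkbp4 averaged 0.906 at ZT14 and 0.374 at ZT6, with a fitted peak at ZT16.4 and a fold of 2.04 (edgeR adjusted p = 0.00297). Stip1 averaged 0.569 at ZT14 and 0.237 at ZT6, with a peak at ZT16.0 and a fold of 2.11 (edgeR adjusted p = 0.00103). Both thus stood highest at ZT14. Of the members, Klf9, Zbtb16 and Errfi1 had their lowest mean at that time, Zbtb16 and Errfi1 without a call. Tsc22d3 and Fkbp5 were lowest at ZT2 and Sgk1 and Nr3c1 at ZT22, while Hsd11b1 was highest at ZT14. A relation between these was not tested.

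Of 23 other glucocorticoid-induced genes tested in fibroblasts, 8 were called rhythmic, or 34.8% beside the background of 13.2%, with a median log2 peak-to-trough difference of 0.60. Their peaks were scattered over the day. Per1, a clock gene also induced by the receptor, peaked at ZT8.40 with a fold of 2.11 (edgeR adjusted p = 0.00357), next to Sgk1. Pdk4, a kinase that restrains pyruvate oxidation, peaked at ZT3.70, and Glul, glutamine synthetase, at ZT11.8. The cell cycle inhibitors Cdkn1c and Cdkn1a peaked at ZT15.9 and ZT23.4, and the 3 others called, Angptl4, Irs2 and Il1r2, between ZT1.96 and ZT6.10. Genes the receptor is known to repress gave 0 calls of 5 tested by edgeR, and the 13 dissociation and immediate early genes gave 1, Ier3. In macrophages and other immune cells none of these 4 lists gave a call.

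The 11 clock genes, kept as a reference, were all called in fibroblasts, 7 of 10 in macrophages and 0 of 4 in other immune cells. Arntl, the positive arm of the clock, peaked in fibroblasts at ZT22.6 with a fold of 23.3 (edgeR adjusted p = 3.86e-08). Dbp, an output gene of opposite phase, peaked at ZT9.87 with a fold of 56.4 (edgeR adjusted p = 3.86e-08). The Sgk1 fold of 2.84 and the Klf9 fold of 1.55 were therefore small beside those of the clock, with peaks nearer to that of Dbp than to that of Arntl.

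The genes whose log2 level over the 18 fibroblast libraries was most like that of Sgk1 were Zfp469 (Pearson r = 0.885), Prss12 (r = 0.884) and Myo5a (r = 0.860), among 12759 genes compared. For Klf9 they were Eci2 (r = 0.881), Arl4a (r = 0.853) and Ccdc71l (r = 0.828). These correlations were picked as the highest of all, share the libraries and their depth, and are given as a description with no test.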

How the data were processed

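Cells of dorsal dermis from 18 mice, collected at 6 zeitgeber times with 3 mice each, were digested with collagenase, sorted as live cells and made into 10x Genomics 3′ v3 libraries. Per the submitters' processing notes the authors used Cell Ranger 3.1.0 and mm10, and they deposited raw UMI counts per gene and barcode.

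The study's own cell filter was applied, namely 850 to 7800 detected genes and a mitochondrial share below 13%. They were clustered with scanpy 1.11.5 (2000 variable genes, 30 principal components, Leiden resolution 0.8) and named from marker lists. The rule that settled clusters holding markers of several types was set after the clusters were seen. Clusters outside the 3 classes, which held 1578 cells, were left out, and doublets were treated only in an alternative that removed 219 cells with the highest Scrublet scores.

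Counts were summed per library and class and tested with edgeR 4.0.16 (TMM, filterByExpr, quasi-likelihood, Benjamini-Hochberg over all genes). Rhythms were tested as cosine and sine terms of 24 h without a replicate block, and classes were compared with the library as a block. DESeq2 1.42.0, other filters, scalings and clusterings and leaving out each library were alternatives. The study's rank test on normalized values became an alternative, because the deposited values are counts. In data simulated from these libraries, 200 of 200 changed genes were recovered for the fibroblast rhythm, 195 of 200 for macrophages and 194 of 200 for other immune cells. For rhythm differences 152 of 200 were recovered between macrophages and fibroblasts, 127 of 200 between other immune cells and fibroblasts and 145 of 200 between macrophages and other immune cells. The simulated rhythms had a fixed peak-to-trough fold larger than the fitted fold of any member, and a fixed spread. Recovery of rhythms of the members' size was not tested. Intervals cover counting error only. Each library came from a separate mouse.

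Fold changes are peak to trough of the fitted cosine on the model's log scale. The genes named were the 8 members, up to 5 genes with the smallest adjusted p of each list in each class, the 3 genes most like each called member (log2 of the level plus 0.01), and Arntl and Dbp. The names Angptl4, Irs2 and Il1r2, and genes leading a cluster, fall outside that rule and were chosen after their values were seen. The members and lists were chosen with earlier results of these data known.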

Additional observations from a re-analysis of the deposited data

Results flagged for a closer look

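Cells outside the 3 classes held higher levels of some members than any cluster inside them, as sums over all libraries with 95% Poisson intervals. An unnamed cluster of 18 cells from 10 libraries, led by Prlr and Slc26a7, had Nr3c1 at 11.2 UMIs per 10000 (9.07 to 13.7, from 95 UMIs), where the highest cluster in the classes had 3.41. The same cells had Klf9 at 8.26 (6.44 to 10.4) and Fkbp5 at 2.12 (1.26 to 3.36). An unnamed cluster of 49 cells from 15 libraries, led by Nppc and Chodl and holding Myf5 and Pax7 among its leading genes, had Hsd11b1 at 2.51 (2.07 to 3.01) and Klf9 at 6.65 (5.93 to 7.43). In 27 endothelial-like cells from 12 libraries Sgk1 stood at 4.93 (4.05 to 5.95), against 2.07 in the highest fibroblast cluster. Zbtb16 stood at 0.955 (0.879 to 1.04) in 643 cells led by haemoglobin genes that also carried the fibroblast markers, against at most 0.845 in the classes. These cells were too few, or too mixed, to be tested over time.

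No member's rhythm differed between classes by the interaction test, but some clock genes kept as a reference did. Between macrophages and fibroblasts 3 of the 10 tested were called, Nfil3 among them, and between other immune cells and fibroblasts 3 of 10. Nfil3 differed between macrophages and fibroblasts (edgeR adjusted p = 0.000698), with a fold of 1.37 in macrophages and 11.6 in fibroblasts, and between other immune cells and fibroblasts (edgeR adjusted p = 1.51e-05). Dbp (edgeR adjusted p = 0.00110) and Arntl (edgeR adjusted p = 0.0216) differed between other immune cells and fibroblasts. In other immune cells Dbp had 82 UMIs and Arntl 104, each with 3 libraries at 0, too low to be tested for a rhythm in that class. Both passed the filter on low counts through fibroblasts, so their rhythm in other immune cells cannot be read from this difference. Groups of 3 libraries are too small for the search for single libraries far from the others.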

How the results depend on the processing

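Over all members and alternatives 1693 of 1731 values kept their side of the threshold, 27 lost a call, 10 gained one and 1 reversed. Direction was compared only for level differences called in the main fit or in the alternative. Uncalled ones that changed sign count as kept, such as Sgk1 in other immune cells against fibroblasts (log2 0.20, down to -0.42). In fibroblasts the 2 called members became 0 with the 6 times as a factor, 0 by the rank test, 0 to 2 when 1 library was left out, 1 without the cluster highest in Sgk1 and 1 without the clusters high in a member. Without ZT6 replicate 2 neither Sgk1 nor Klf9 was called. With no filter on low counts 2 members were called in macrophages and 4 differed in rhythm between macrophages and fibroblasts. The reversed value was the Nr3c1 log2 difference of macrophages minus fibroblasts, 0.15 in clusters with 8 macrophage markers, and 7 to 8 members were called in that comparison when 1 library was left out. Resolution 2 gave -0.01 for it (adjusted p = 0.912). The cause was not tested. Nr3c1 between macrophages and other immune cells was not called without the clusters mostly of 1 library (edgeR adjusted p = 0.0766), and Hsd11b1 between other immune cells and fibroblasts was called at resolution 2 (0.0477) and by DESeq2 (0.0351).

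With the replicate number as a block Hsd11b1 was called in fibroblasts (edgeR adjusted p = 0.0445), and no other rhythm call of a member in a class changed. Over 45 pairs of fibroblast libraries with the same number the median correlation of their deviations was 0.0502, and 11 pairs were over 0.1. Over pairs with different numbers the median was -0.0286. Whether the libraries of a day share a deviation was not tested. Leaving out TMM raised the level differences of the members and listed genes by a median log2 of 0.103 for macrophages against fibroblasts. For macrophages against other immune cells that median was 0.120.

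Counts over all genes moved more. In fibroblasts 1686 genes were called, but 880 by the rank test. In macrophages the 23 became 102 by DESeq2, 55 in clusters with 8 markers, 210 with no filter, 10 by the rank test, 37 without ZT10 replicate 1 and 48 without ZT2 replicate 3. In other immune cells the 0 by edgeR became 5 by DESeq2, 65 with no filter and 9 without ZT6 replicate 3. The 56 rhythm differences between macrophages and fibroblasts became 108 by DESeq2, 85 in clusters with 8 markers, 418 with no filter, 30 at resolution 2 and as few as 30 without 1 library. The 4 between other immune cells and fibroblasts became 7 by DESeq2, 129 with no filter, 9 without the clusters mostly of 1 library and up to 8 without 1 library, and the 0 between macrophages and other immune cells became 155 with no filter. With no filter 6502 level differences were called in place of 4059 between macrophages and other immune cells and 12171 in place of 8104 between other immune cells and fibroblasts. Single libraries held as few as 28 macrophages and 3 other immune cells, and the part of this in the low counts of calls was not tested.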

Other observations

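Of 23 other known glucocorticoid-induced genes tested, 11 were higher in macrophages than in fibroblasts and 10 lower by edgeR, where 36.8% of all genes were higher and 46.9% lower. Of 22 tested, 9 were higher in other immune cells than in fibroblasts and 10 lower, where 31.1% of all genes were higher and 45.2% lower. Higher in macrophages were Cd163, the haemoglobin scavenger receptor, Mertk, a receptor for the uptake of dying cells, and Per1. Cd163 was too low to be tested in fibroblasts and passed the filter on low counts through the immune cells. Its direction was thus given in advance in both comparisons. The reverse holds for Pdk4, counted among the genes lower in macrophages, which had 78 UMIs there. Lower in macrophages were also Anxa1, a mediator of the anti-inflammatory action of glucocorticoids, Angptl4 and Cdkn1c. These names were chosen after their values were seen.

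Fkbp4 and Stip1, called rhythmic in fibroblasts, also had their highest macrophage mean at ZT14. Fkbp4 averaged 0.668 at ZT14 and 0.279 at ZT6 there, and Stip1 averaged 0.895 at ZT14 and 0.412 at ZT2, with no call in macrophages (edgeR adjusted p = 0.204 and 0.153).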
